A study of Mus musculus with 16 samples.

Results

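The integrated stress response (ISR) and unfolded protein response (UPR) genes examined here were Atf4, Atf5, Ddit3, Trib3, Chac1, Asns, Ppp1r15a, Sesn2, Ddit4 and Hspa5. These 10 genes were taken by symbol from 47729 genes with a value in the deposited tables. All 10 were among the 16994 genes that passed the filter on low values, which asked for at least 0.5 CPM (counts per 1000000 reads counted on genes) in all 4 replicates of at least 1 group. The mRNA of mouse cochleae at postnatal day 4 (P4) had been sequenced in 16 libraries, with 4 input and 4 IP libraries from control mice and the same numbers from DTR mice. Mice of both genotypes carried GLAST CreERT/+, a tamoxifen-inducible Cre driven by Slc1a3 (GLAST) regulatory sequence, and Rpl22 HA/+ (RiboTag), which gives ribosomes of Cre+ cells an HA tag. DTR mice additionally carried Lgr5 DTR/+, which places the diphtheria toxin receptor on Lgr5+ supporting cells. By the study's methods, mice of both genotypes received diphtheria toxin (DT) and tamoxifen at P1, whereas the sample labels list the controls as untreated and the DTR samples as treated. Since the controls lacked the DTR allele, the allele and the loss of Lgr5+ cells cannot be told apart. Each of the 8 pools combined cochleae of 4 mice from which the ganglion, the lateral wall and Reissner's membrane had been dissected away, and gave 1 input library (RNA of the whole homogenate) and 1 IP library (RNA pulled down with the tagged ribosomes). Input and IP of the same number therefore came from the same animals.

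The ISR starts when a stress-sensing kinase phosphorylates the translation initiation factor eIF2, which lowers protein synthesis in general while translation of Atf4 mRNA rises. The ATF4 protein then induces genes for amino acid supply, feedback control and, under lasting stress, cell death. The UPR is the companion program of the endoplasmic reticulum (ER), in which the chaperone BiP, encoded by Hspa5, is both a sensor component and a target. In the cochlea both programs are best known from hair cells, where they have been studied in noise and drug damage.

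Promoter sequence is shown because ATF4, ATF6 and related factors recognise short motifs, and the members differ in whether such letters lie near their start sites. All 10 genes matched RefSeq promoter windows (GRCm38.p6, 250 bases before to 50 bases after the start site), 2 of them for Atf5. Both strands were searched for the C/EBP-ATF response element (CARE) as TGATGNAA, its stricter form TGATGCAAT, the ER stress response element (ERSE) as CCAAT followed by CCACG with 9 free bases between them, and the cAMP response element core as TGACGT. The stricter form is contained in the first, so the searches overlap. Positions count from the start site, with no base 0. For Atf4 and Ddit3, both higher after damage, no match was found in the window, and the 100 bases before the start site are given. For Ppp1r15a the TGACGT core was present on both strands as a palindrome, and for Trib3, Chac1 and Asns the CARE letters were present. Hspa5 held the ERSE letters. Capitals mark the matches.
Atf4, chr15:80255084-80255183, + strand: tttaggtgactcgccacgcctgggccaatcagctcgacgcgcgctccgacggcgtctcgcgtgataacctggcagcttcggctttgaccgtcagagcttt
Ddit3, chr10:127290693-127290792, + strand: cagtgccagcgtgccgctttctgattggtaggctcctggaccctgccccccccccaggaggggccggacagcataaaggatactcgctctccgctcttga
Ppp1r15a, chr7:45526269-45526368, - strand: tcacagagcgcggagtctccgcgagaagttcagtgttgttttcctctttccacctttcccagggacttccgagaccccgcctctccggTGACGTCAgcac
Chac1, chr2:119350992-119351091, + strand: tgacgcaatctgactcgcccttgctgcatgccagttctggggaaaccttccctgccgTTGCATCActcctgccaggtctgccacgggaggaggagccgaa
Asns, chr6:7693215-7693244, - strand: gtcccagccacaTGATGAAActtcccgcac
Trib3, chr2:152344028-152344057, - strand: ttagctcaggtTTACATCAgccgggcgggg
Hspa5, chr2:34772020-34772049, + strand: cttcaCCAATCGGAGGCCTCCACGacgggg

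The CARE match lay at positions -193 to -186 in Chac1, -23 to -16 in Asns and 15 to 22 in Trib3, and these letters were found in 3.97% of the 32851 RefSeq promoters. No member held the stricter form, which 0.192% of promoters held. The ERSE match of Hspa5 lay at positions -65 to -47, and 0.119% of promoters had one. The TGACGT core was present in Ppp1r15a at positions -12 to -5 and in Hspa5 at positions -157 to -152, against 7.51% of promoters. The windows of Atf4, Atf5, Ddit3, Sesn2 and Ddit4 held none of these letters, which describes the windows and not the binding of any factor.

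Libraries held between 28089836 and 41966310 counted reads, so that 3 reads corresponded to 0.0715 to 0.107 CPM, and the lowest member value, Chac1 in DTR input, rested on 43 reads. Lgr5 was lower after damage in both kinds of library, with means of 63.3 and 15.9 CPM in input of control and DTR and 36.6 and 9.38 CPM in IP (limma adjusted p = 2.23e-08 in input and 3.47e-08 in IP). Of 12 markers of the greater epithelial ridge (GER) and supporting cells, 7 were lower after damage in IP, and 7 were lower and 2 higher in input. Over all tested genes, 7.3% were lower in IP, and 5.21% were lower and 7.17% higher in input. Slc1a3, whose regulatory sequence drives Cre, averaged 236 CPM in control IP against 281 CPM in control input, so the IP was not enriched for it (LFC -0.20, adjusted p = 0.102), whereas 9 of 10 hair cell markers and 8 of 8 macrophage markers were lower in control IP than in control input. The 12 GER and supporting cell markers were not enriched as a list either, with 3 higher and 5 lower (median LFC -0.37). Of all tested genes, 19.3% were higher and 20.7% lower in control IP than in control input. In these bulk samples, fewer cells of a type and less RNA per cell cannot be told apart.

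The first question was how the members changed after loss of Lgr5+ cells, in the ribosome-bound RNA of GLAST-Cre+ cells (DTR IP against control IP) and in the whole duct (DTR input against control input). Atf4, Ddit3 and Ppp1r15a were higher in DTR than in control in both kinds of library, and no other member passed the test in either. The median LFC (the log2 fold change on the log2(CPM + 0.5) scale after quantile normalization) of the 10 genes was -0.24 in IP, beside -0.0043 over all tested genes, and -0.07 in input, beside -0.02. In IP, 3 of 10 members were higher and 0 were lower, while 8.44% of all tested genes were higher and 7.3% lower. In input the counts were again 3 and 0, against 7.17% and 5.21% of all tested genes. Under the stricter rule of the study, which also asks for an absolute LFC of at least 1 and a separation above 1.5 (lowest value of the higher group over highest value of the lower group), Atf4 passed in IP and Atf4 and Ddit3 passed in input, with 1.12% and 1.34% of tested genes higher by that rule.

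**Figure D1:**
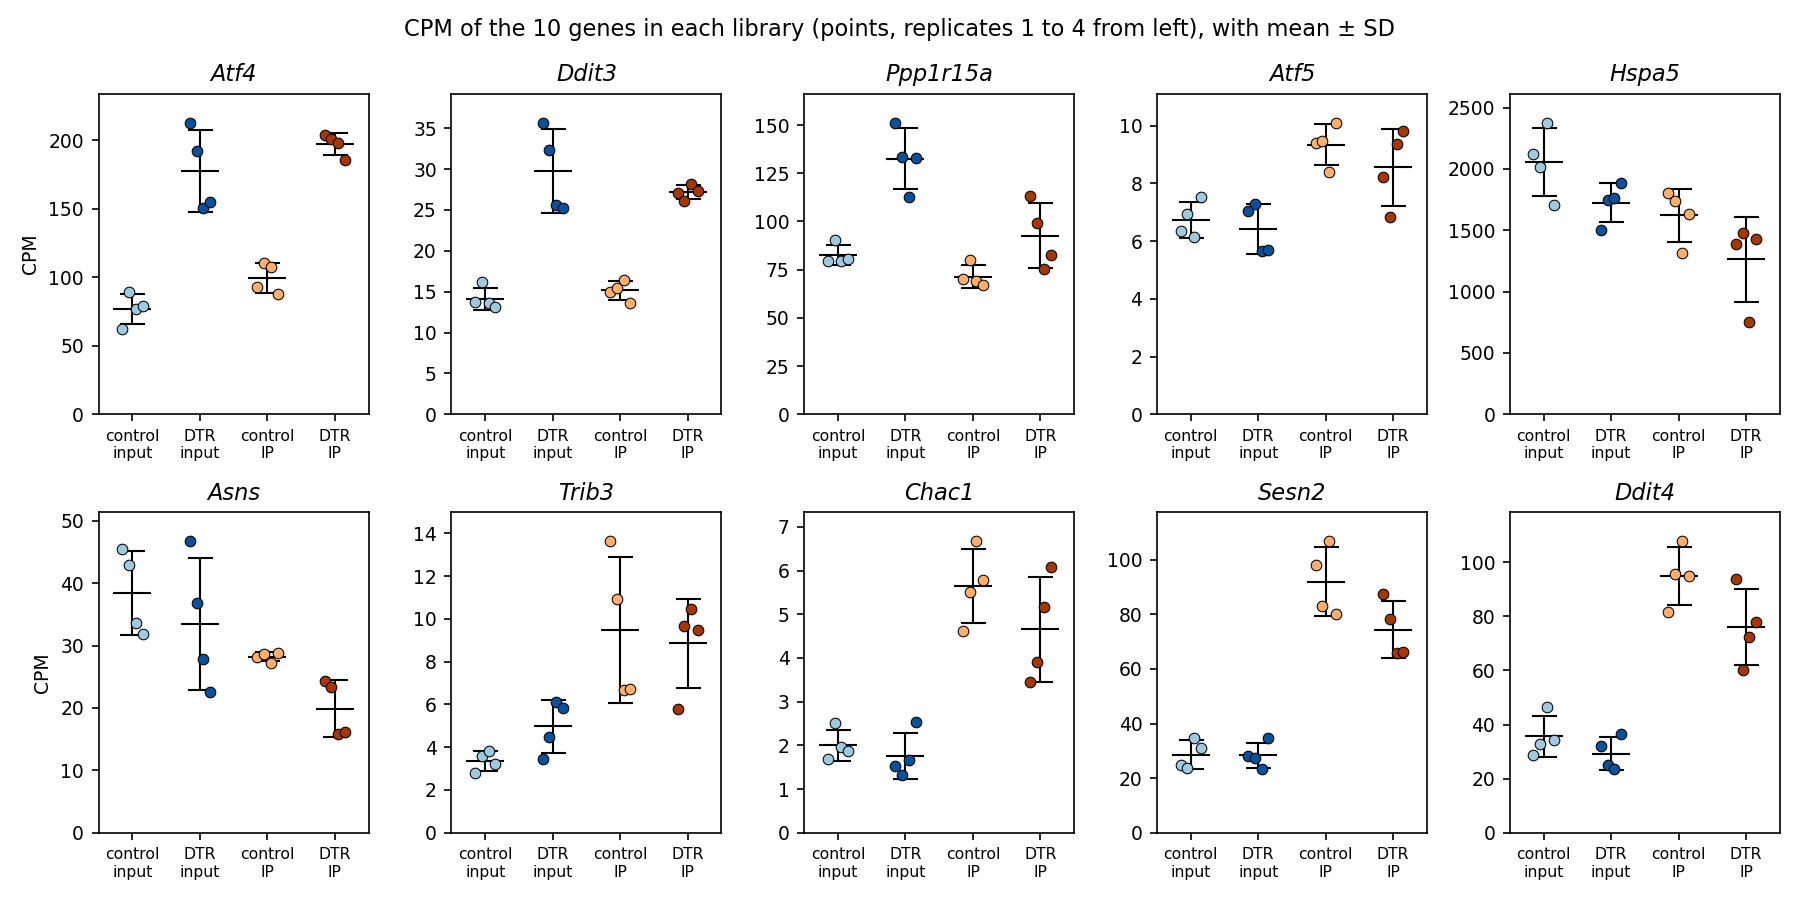
Each panel shows 1 gene, with CPM on the vertical axis from 0 and the 4 groups on the horizontal axis. Points are libraries, horizontal lines the mean and bars ± SD of 4 libraries. The DTR points of Atf4 and Ddit3 lie above all control points, from 150 and 25.3 CPM upwards. Sesn2, Ddit4 and Chac1 separate IP from input in control and in DTR, Trib3, Atf5 and Asns in control, and Hspa5 in DTR. Asns and Hspa5 are the lower in IP there.

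Atf4 (ENSMUSG00000042406, chr15:80255184-80257541), the central transcription factor of the ISR, was measured at 92.6, 110, 108 and 87.5 CPM in control IP replicates 1 to 4. In DTR IP it stood at 204, 201, 198 and 186 CPM. All 4 DTR IP libraries exceeded all 4 control IP libraries, and the DTR IP values lay close together (coefficient of variation 4.08%). The LFC was 1.01 ± 0.12 (SE, 95% CI 0.76 to 1.26, limma adjusted p = 6.93e-06, n = 4 per group), with a separation of 1.75 in quantile-normalized CPM. In input, Atf4 was 62.4, 89.4, 76.9 and 79.0 CPM in control and 213, 192, 150 and 155 CPM in DTR. These groups did not overlap either, and the LFC was 1.18 ± 0.12 (adjusted p = 9.72e-07). Atf4 was the member with the largest LFC in both comparisons, and it passed the test in all 27 alternative settings of each. The genes nearest to Atf4 in their pattern over the 16 libraries, each gene centred on its own mean, were Klf6 and Pcf11, at root mean square differences of 0.15 and 0.17 on the log2 scale.

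Ddit3 (ENSMUSG00000025408, chr10:127290774-127296288) encodes CHOP, the transcription factor that ATF4 induces and that is known for driving cell death under prolonged ER stress. Its values were 15.01, 15.5, 16.5 and 13.6 CPM in control IP and 27.1, 26.1, 28.2 and 27.3 CPM in DTR IP. The DTR IP libraries were all higher, and the LFC was 0.76 ± 0.12 (95% CI 0.50 to 1.02, limma adjusted p = 0.000233), with a separation of 1.49. In input, control libraries gave 13.7, 16.1, 13.6 and 13.1 CPM and DTR libraries 35.7, 32.4, 25.6 and 25.3 CPM. Again the groups were apart, with an LFC of 1.04 ± 0.12 (adjusted p = 7.76e-06). Ddit3 passed in all 27 alternative settings of both comparisons. Its nearest genes in pattern were Bax, which encodes a pore-forming protein of the cell death pathway, and Tspan4, at root mean square differences of 0.14 and 0.15. In GENCODE M21 the exons of Ddit3 overlap those of Mars and Gm4189 on the other strand, and the library kit does not mark strand. The LFC of Mars was 0.19 in IP (adjusted p = 0.395) and 0.01 in input (adjusted p = 0.979), and Gm4189 averaged between 0.382 and 0.780 CPM in the 4 groups. Another annotated gene entry with the symbol Ddit3 lies on the same strand, so reads of these entries cannot be told apart by position.

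Ppp1r15a (ENSMUSG00000040435, chr7:45522916-45526268) encodes GADD34, the phosphatase subunit that removes the phosphate from eIF2 and ends the response. In input it was 79.4, 90.5, 79.6 and 80.8 CPM in control and 151, 133, 113 and 133 CPM in DTR. The groups were apart, with an LFC of 0.68 ± 0.11 (95% CI 0.44 to 0.91, limma adjusted p = 0.000314), and the call was present in all 27 alternative settings. In IP it was 70.1, 79.9, 69.0 and 66.8 CPM in control and 113, 99.2, 75.3 and 82.7 CPM in DTR. Here the groups overlapped, since DTR IP replicate 3 lay below control IP replicate 2, and the LFC was 0.35 ± 0.11 (95% CI 0.12 to 0.59, adjusted p = 0.0373). The call in IP was absent in edgeR (adjusted p = 0.0922), DESeq2 (0.071), the fit of the IP groups alone (0.113), the fit without quantile normalization (0.0523), median centring (0.0574) and the fit with no filter on low values (0.0582). It was also absent without control IP replicate 1 (0.0849), 3 (0.0886) or 4 (0.0662) and without DTR IP replicate 1 (0.131) or 2 (0.0857), and was present in 16 of 27 alternative settings. The genes nearest in pattern were Wdr43 and Mkln1, at 0.12 and 0.13. Ppp1r15a exons overlap those of Tulp2 on the other strand, which was at no more than 1.24 CPM on average in any group and was lower after damage in IP (LFC -1.63, adjusted p = 2.21e-06).

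**Figure D2:**
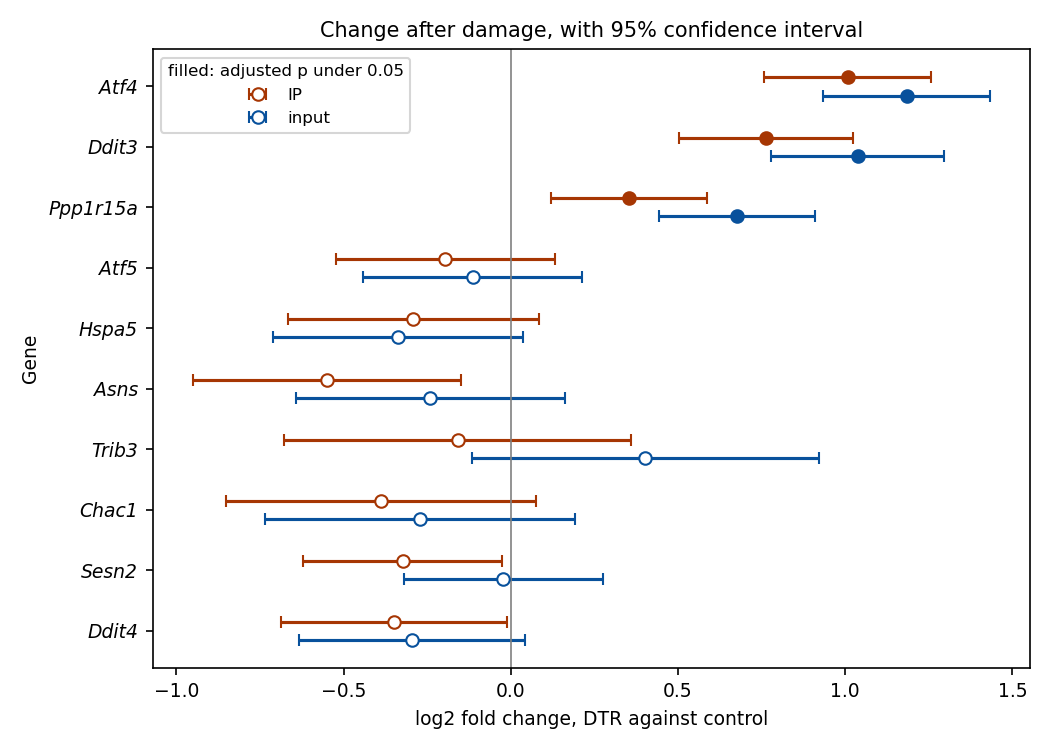
The horizontal axis gives the LFC of DTR against control on the log2(CPM + 0.5) scale and the vertical axis the gene, with points for IP and input, bars for the 95% confidence interval of the limma fit and filled points where the adjusted p was under 0.05. Atf4, Ddit3 and Ppp1r15a have filled points in IP and input, and the other 7 genes have open points, 6 of them below 0 in both.

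Atf5 (ENSMUSG00000038539, chr7:44812256-44816658), a transcription factor whose mRNA is translated under stress like that of Atf4, was at 6.14 to 7.53 CPM in control input and 5.64 to 7.29 CPM in DTR input. In IP it ranged from 8.41 to 10.1 CPM in control and from 6.84 to 9.80 CPM in DTR. The groups overlapped in both, with LFC of -0.11 (95% CI -0.44 to 0.21, limma adjusted p = 0.741) in input and -0.20 (95% CI -0.52 to 0.13, adjusted p = 0.455) in IP. Its exons overlap those of Nup62 and Il4i1 on the other strand, and Nup62, at 62.4 to 70.9 CPM on average in the 4 groups, had LFC of 0.06 in input and 0.09 in IP.

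Trib3 (ENSMUSG00000032715, chr2:152337422-152344032) encodes a pseudokinase that CHOP and ATF4 induce and that restrains both. It was 13.6, 10.9, 6.67 and 6.70 CPM in control IP and 5.78, 9.68, 10.5 and 9.47 CPM in DTR IP. Replicate 1 was the highest of the control IP libraries and the lowest of the DTR IP libraries, and the groups overlapped (LFC -0.16, 95% CI -0.68 to 0.36, limma adjusted p = 0.731). In input the values were 2.79, 3.58, 3.84 and 3.21 CPM in control and 3.46, 4.49, 6.10 and 5.85 CPM in DTR. Each DTR input library was higher than the control input library of the same number, but the ranges overlapped and the LFC of 0.40 (95% CI -0.12 to 0.92) missed the threshold (adjusted p = 0.361).

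Asns (ENSMUSG00000029752, chr6:7675169-7693254), which encodes asparagine synthetase and is a classic ATF4 target, was 28.2, 28.7, 27.2 and 28.8 CPM in control IP. In DTR IP it was 24.3, 23.3, 15.8 and 16.2 CPM. All DTR IP libraries lay below all control IP libraries, with an LFC of -0.55 ± 0.19 (95% CI -0.95 to -0.15) that missed the threshold (limma adjusted p = 0.0593). A block on replicate number gave an adjusted p of 0.0102 at the same LFC, so that Asns was then lower. It was also under 0.05 in the fit of the IP groups alone (0.0464), in DESeq2 (0.0261), and without DTR input replicate 1 (0.0377), DTR input replicate 4 (0.0278) or DTR IP replicate 2 (0.0448). In input, control gave 45.4, 42.9, 33.6 and 31.9 CPM and DTR 46.7, 36.8, 27.9 and 22.6 CPM. These ranges overlapped (LFC -0.24, adjusted p = 0.512). The LFC was -0.40 without DTR input replicate 1, -0.06 without DTR input replicate 4 and -0.16 without control input replicate 1, and it passed in none of the 27 alternative settings.

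Chac1 (ENSMUSG00000027313, chr2:119351229-119354381), which encodes a glutathione-degrading enzyme, was the member with the fewest reads. It ranged from 4.61 to 6.67 CPM in control IP and from 3.44 to 6.08 CPM in DTR IP (LFC -0.39, 95% CI -0.85 to 0.07, limma adjusted p = 0.269). In input the ranges were 1.69 to 2.51 and 1.31 to 2.53 CPM (LFC -0.27, adjusted p = 0.527). DTR and control overlapped in both kinds of library.

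Sesn2 (ENSMUSG00000028893, chr4:132492032-132510501) and Ddit4 (ENSMUSG00000020108, chr10:59949669-59951834) encode Sestrin2 and REDD1, stress-induced brakes on mTORC1, the kinase complex that promotes growth. Sesn2 was 97.9, 83.1, 107 and 80.0 CPM in control IP and 87.4, 78.2, 65.7 and 66.4 CPM in DTR IP. Each DTR IP library was below the control IP library of its number, yet the ranges overlapped (LFC -0.32, 95% CI -0.62 to -0.02, limma adjusted p = 0.139). Ddit4 was 81.5, 95.7, 108 and 94.7 CPM in control IP and 93.9, 60.2, 72.6 and 77.8 CPM in DTR IP. These ranges overlapped as well (LFC -0.35, 95% CI -0.69 to -0.01, adjusted p = 0.163). In input the LFC was -0.02 (95% CI -0.32 to 0.28) for Sesn2 and -0.30 (95% CI -0.63 to 0.04) for Ddit4, and neither passed the test (adjusted p = 0.954 and 0.289). A gene of the antisense class, Gm12981, lies on the strand of Sesn2 without sharing its exons and averaged at most 0.166 CPM.

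Hspa5 (ENSMUSG00000026864, chr2:34771970-34777547), the ER chaperone gene that serves as the usual readout of the UPR, was 1802, 1735, 1314 and 1630 CPM in control IP and 1389, 1478, 749 and 1432 CPM in DTR IP. DTR IP replicate 3 stood far below the other DTR IP libraries. The ranges overlapped, and the LFC of -0.29 (95% CI -0.67 to 0.08) did not pass (limma adjusted p = 0.307). Without DTR IP replicate 3 the LFC was -0.07 (adjusted p = 0.796). In input, control gave 2120, 2014, 2377 and 1708 CPM and DTR 1503, 1745, 1759 and 1883 CPM. These ranges overlapped too, and the LFC was -0.34 (95% CI -0.71 to 0.04, adjusted p = 0.27).

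The change after damage in IP was then tested against the change in input. In limma 0 members passed, where 2 of the 16994 genes (0.0118%) did, and 0 members had an unadjusted p under 0.05. The numbers of members were also 0 in edgeR and DESeq2. None of these fits paired the IP and input of a pool. With the pool as a block in limma, 15 genes were higher and 25 lower, and again no member passed. The intervals that follow come from the fit without that block. The interval was widest for Trib3 (difference in LFC -0.56, 95% CI -1.29 to 0.17), and the smallest p belonged to Ppp1r15a (difference -0.32, 95% CI -0.65 to 0.01, limma adjusted p = 0.98). For Atf4 the difference was -0.18 (95% CI -0.53 to 0.18) and for Ddit3 -0.27 (95% CI -0.64 to 0.09).

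Markers of some other cell types also differed between control and DTR. The summed CPM of the 8 macrophage markers ranged from 77.4 to 86.9 in control input and from 107 to 167 in DTR input, and from 13.9 to 24.3 in control IP and from 28.1 to 44.8 in DTR IP. Of these markers 5 were higher after damage in input and 4 in IP, beside 7.17% and 8.44% of all tested genes. The summed CPM of the 6 mesenchyme markers ranged from 2308 to 3413 in control IP and from 3907 to 4743 in DTR IP. In input the ranges overlapped, at 5344 to 5941 in control and 4730 to 6218 in DTR. LFC were positive for 5 of the 6 in IP and 4 in input, but Emilin2 was at -0.59 and -0.87. The 6 Schwann cell and glia markers summed to 2356 to 4046 CPM in control input and 1204 to 1869 CPM in DTR input. In IP they summed to 795 to 1209 CPM in control and 584 to 782 CPM in DTR. The sums of the hair cell, neuron, endothelial and erythroid markers overlapped between control and DTR in both kinds of library. No marker of these lists was at 0 in all libraries of a group. The part of these cell types in the values of Atf4, Ddit3 and Ppp1r15a was not tested.

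Of 111 other genes of the pathway, set out in 10 lists, 109 were tested. In IP 11 of them were higher after damage (10.1%) and 3 lower (2.75%), beside 8.44% and 7.3% of all tested genes, with a median LFC of 0.02. A block on replicate number gave 14 higher and 11 lower, and without control IP replicate 1 the counts were 8 and 1. The balance also moved with the scaling, to 12 and 6 without quantile normalization, 9 and 6 with median centring, 8 and 9 in edgeR and 8 and 10 in DESeq2. The serine, glycine and one-carbon enzymes (0 of 12), the ER stress sensors (0 of 8) and the genes of ER-associated degradation (0 of 10) had no member past the threshold in limma. Input gave 9 higher (8.26%) and 5 lower (4.59%) of the 109, beside 7.17% and 5.21% of all tested genes. These counts were 6 and 3 without control input replicate 2 and 7 and 2 without DTR input replicate 1 or 3.

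Among the partners and regulators of ATF4, 3 of 8 were higher in DTR IP, beside 8.44% of all tested genes. Atf3, a transcription factor that ATF4 and CHOP induce, averaged 2.35 CPM in control IP against 17.7 CPM in DTR IP (LFC 2.55 ± 0.23, limma adjusted p = 1.95e-07), and Cebpd 10.5 and 18.2 CPM (LFC 0.69, adjusted p = 0.00615). Of the 12 tested other targets of ATF4 or CHOP, 3 were higher. The stress cytokine gene Gdf15 averaged 0.231 CPM in control IP against 2.38 CPM in DTR IP (LFC 1.86, adjusted p = 6.15e-06). At this low level the LFC moved with the pseudocount and the tool, from 1.37 to 3.29 over 26 alternative settings, all past the threshold. Bbc3, which encodes the cell death activator PUMA and is also a well-known p53 target, averaged 23.7 and 55.9 CPM (LFC 1.19, adjusted p = 5.51e-07). Fgf21 of this list and Ern2 of the ER stress sensors did not pass the filter on low values.

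The lists nearer to amino acid supply and translation are given by count in DTR IP against control IP. Of all tested genes, 8.44% were higher and 7.3% lower there. Of 14 genes for eIF2 kinases, eIF2 and eIF2B, 1 was higher, Eif2s2 (LFC 0.48, limma adjusted p = 0.011). Of 9 amino acid transporters, 2 were higher and 1 lower, among them Slc1a5 (LFC 0.56, adjusted p = 0.0142, and 0.0528 without DTR IP replicate 4) and Slc1a4 (LFC -0.72, adjusted p = 0.00136), which both carry neutral amino acids. Of 12 tRNA synthetases and the tRNA exporter Xpot, 1 was higher, Eprs (LFC 0.35, adjusted p = 0.0331). The call of Eprs was present in 17 of 27 alternative settings. It was absent in edgeR (adjusted p = 0.132), DESeq2 (0.112), the fit of the IP groups alone (0.122) and median centring (0.0949). It was also absent with no filter on low values (0.0568) and with gene length and GC removed (LFC 0.17, 0.33). The same held without control IP replicates 1 or 3 or DTR IP replicates 1 or 2 (0.084 to 0.119). Of 17 ER chaperones and folding factors, 1 was lower, Pdia4 (LFC -0.48, adjusted p = 0.0495), and the other 16, like Hspa5, did not pass. The call of Pdia4 was present in 10 of 27 alternative settings, and without DTR IP replicate 3, the library with the lowest Hspa5, its LFC was -0.29 (adjusted p = 0.141).

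Paralogs of the members showed a mixed picture in IP. Ddit4l, the relative of Ddit4, averaged 17.6 CPM in control IP against 31.3 CPM in DTR IP (LFC 0.73, limma adjusted p = 0.00306), whereas Trib1 averaged 89.6 and 67.6 CPM (LFC -0.43, adjusted p = 0.0194, and 0.0531 and 0.0537 without control IP replicate 1 and DTR IP replicate 4). The LFC of Sesn1 was 0.12, of Sesn3 0.07, of Trib2 -0.09, of Chac2 -0.33 and of Ppp1r15b, the constitutive counterpart of Ppp1r15a, -0.06, and none of these 5 passed.

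**Figure D3:**
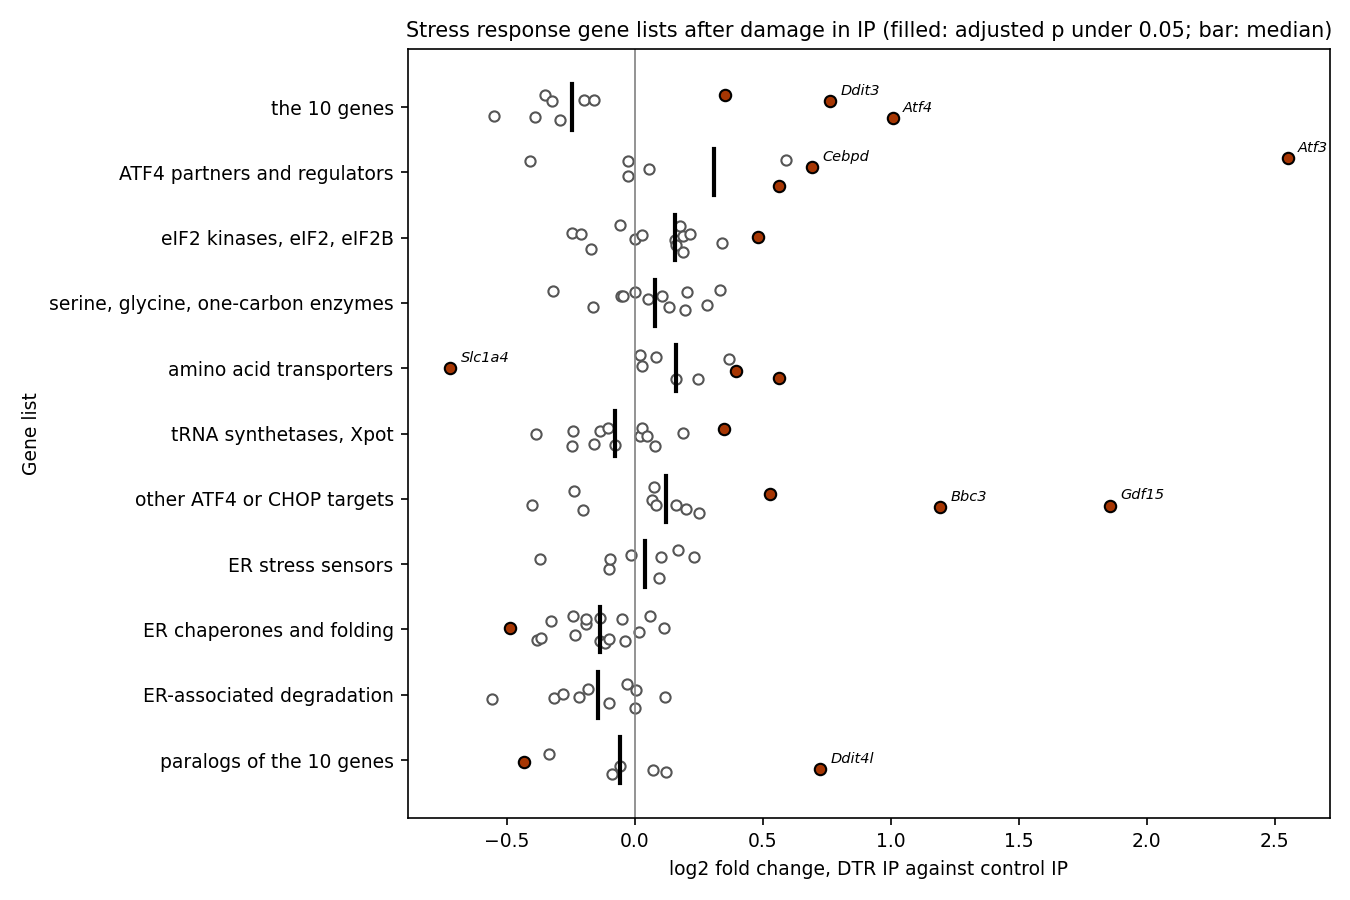
The horizontal axis gives the LFC of DTR IP against control IP on the log2(CPM + 0.5) scale, and each row is a list of stress response genes with 1 point per tested gene, filled where the limma adjusted p was under 0.05, and a bar at the list's median. Atf3, Gdf15 and Bbc3 lie to the right of Atf4, at 2.55, 1.86 and 1.19, and most points of the chaperone and degradation lists lie left of 0, all but that of Pdia4 open.

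The second question was which members were enriched in, or depleted from, the ribosome-bound RNA of GLAST-Cre+ cells relative to the whole duct. Sesn2, Ddit4, Trib3 and Chac1 were higher in IP than in input by LFC between 1.36 and 1.66 in control, and they were higher in DTR too, by 0.81 to 1.36. In control, 6 of 10 members were higher and 1 was lower, against 19.3% and 20.7% of all tested genes. In DTR, 5 were higher and 2 lower, against 18.6% and 20.5%. The fits behind these counts did not pair the input and IP of a pool. With the pool as a block in limma, Asns in control (adjusted p = 0.0111) and Hspa5 in DTR (0.0262) were also lower. The median LFC of the members was 0.45 in control and 0.32 in DTR, beside -0.0012 and -0.03 over all tested genes. These comparisons share their libraries with those after damage and are not independent of them. No member reached the LFC of 2 that the study's methods ask for. The study's results also use an enrichment factor above 2, with no scale stated there. As plain folds in control, Sesn2 (3.17), Ddit4 (2.65), Trib3 (2.59) and Chac1 (2.56) exceeded 2, and the other members did not.

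Sesn2 stood at 24.7, 23.8, 34.6 and 31.2 CPM in control input, all below the 80.0 to 107 CPM of control IP. The LFC was 1.66 ± 0.14 (limma adjusted p = 4.98e-08). In DTR input it was 28.2, 27.4, 23.4 and 34.5 CPM, again below every DTR IP library (LFC 1.36 ± 0.14, adjusted p = 7.06e-07). Sesn2 had the largest LFC of the 10 genes in both comparisons.

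Ddit4 was 28.8, 32.9, 46.5 and 34.4 CPM in control input and 32.2, 25.0, 23.5 and 36.4 CPM in DTR input. IP libraries were higher throughout, with an LFC of 1.40 ± 0.16 in control (limma adjusted p = 1.75e-06) and 1.35 ± 0.16 in DTR (adjusted p = 3.46e-06). Chac1 averaged 2.00 ± 0.35 CPM (SD) in control input and 5.64 ± 0.85 CPM in control IP (LFC 1.36 ± 0.22, adjusted p = 8.01e-05). In DTR it averaged 1.76 ± 0.53 and 4.65 ± 1.20 CPM (LFC 1.24, adjusted p = 0.000228). For this low gene the pseudocount lowers the LFC, and the ratio of mean CPM was 2.81 in control and 2.64 in DTR.

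Trib3 was higher in IP in control (LFC 1.37 ± 0.25, limma adjusted p = 0.000214), where its groups did not overlap. In DTR the ranges overlapped, and the LFC was 0.81 ± 0.25 (adjusted p = 0.0138, and 0.057 without DTR input replicate 1). Atf5 was higher in IP by an LFC of 0.50 ± 0.16 in control (adjusted p = 0.0151) and 0.42 ± 0.16 in DTR (adjusted p = 0.0391). The call of Atf5 in control was absent without control IP replicate 4 (0.0517). In DTR it was absent in 10 of 27 alternative settings, among them edgeR (0.053) and the fits without DTR input replicates 1, 3 or 4 or DTR IP replicates 3 or 4 (0.0618 to 0.12). Atf4 was higher in IP in control by 0.40 ± 0.12 (adjusted p = 0.0123), though its ranges overlapped and the call was absent without control input replicate 1 (0.0581). In DTR its LFC was 0.22 (95% CI -0.03 to 0.47, adjusted p = 0.153).

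Asns, Hspa5 and Ppp1r15a were lower in IP than in input in every pool. For Asns the LFC was -0.75 ± 0.19 in DTR (limma adjusted p = 0.00457) and -0.44 ± 0.19 in control, where the threshold was missed (adjusted p = 0.0777). With the pool as a block the control value was 0.0111, and without DTR input replicate 4 it was 0.04. For Hspa5 the LFC was -0.46 ± 0.18 in control (adjusted p = 0.0474), a call present in 12 of 27 alternative settings. The call was absent in edgeR (0.213), DESeq2 (0.17), without quantile normalization (0.157) and with median centring (0.166). No filter on low values gave 0.132, and removing gene length and GC gave 0.0649. The call was also absent without any 1 of control input replicates 1, 2 or 3, control IP replicates 2, 3 or 4, DTR input replicates 1 or 2 or DTR IP replicate 4 (0.0514 to 0.13). In DTR the LFC of Hspa5 was -0.41 and missed the threshold (adjusted p = 0.0749). The adjusted p was under 0.05 with the pool block (0.0262), without quantile normalization (0.044), with median centring (0.0366), in DESeq2 (0.0361) and without DTR IP replicate 1 (0.0428), whereas without DTR IP replicate 3 the LFC was -0.19 (0.301). For Ppp1r15a the LFC was -0.51 ± 0.11 in DTR (adjusted p = 0.00131) and -0.19 in control, where the threshold was missed (adjusted p = 0.196). Ddit3 passed in neither, with LFC of 0.12 in control and -0.16 in DTR.

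**Figure D4:**
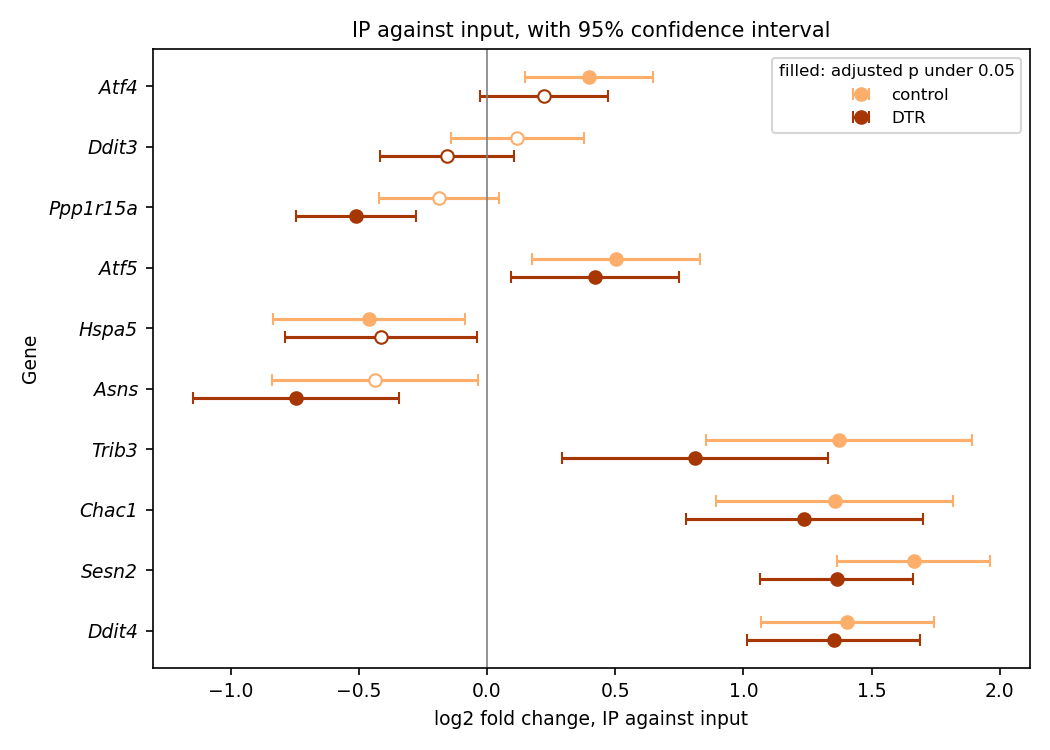
The horizontal axis gives the LFC of IP against input on the log2(CPM + 0.5) scale and the vertical axis the gene, with points for control and DTR, bars for the 95% confidence interval of the limma fit and filled points where the adjusted p was under 0.05. Sesn2, Ddit4, Chac1 and Trib3 lie farthest to the right, between 0.81 and 1.66, and Asns, Hspa5 and Ppp1r15a lie left of 0 in control and in DTR.

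Of the 109 other pathway genes tested, 21 were higher (19.3%) and 31 lower (28.4%) in control IP than in input, beside 19.3% and 20.7% of all tested genes. In DTR, 17 were higher (15.6%) and 29 lower (26.6%), beside 18.6% and 20.5%. Among the tRNA synthetases and Xpot, 10 of 13 were lower in control IP and 8 of 13 in DTR IP, with 0 higher, and among the amino acid transporters 5 of 9 and 4 of 9 were lower, again with 0 higher in limma. For the member Asns the LFC was -0.44 in control (limma adjusted p = 0.0777) and -0.75 in DTR (0.00457). Among the other ATF4 or CHOP targets 6 of 12 were higher in IP in control and 6 of 12 in DTR. When the trend of LFC on gene length and GC content was removed, an alternative chosen after seeing the data, 4 members rather than 7 passed in control, and they were Sesn2, Ddit4, Trib3 and Chac1. Atf4 (limma adjusted p = 0.119), Atf5 (0.0594) and Hspa5 (0.0649) then missed the threshold. The study's methods apply a correction for gene length effects in IP samples before clustering, and the main fit here did not.

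Levels were compared between genes per kilobase of exon, as CPM per kb. Hspa5 was highest in each group, at 486 and 383 in input and IP of control and 407 and 298 in input and IP of DTR, and its ranges were apart from those of the next gene each time. Atf4 followed in control input (32.6), DTR input (75.3) and DTR IP (83.6), and in control IP Ddit4 (54.1) and Atf4 (42.2) overlapped. In control input Atf4 and Ppp1r15a (28.1) overlapped, whereas in DTR input Atf4 was apart from Ppp1r15a (45.1). Ddit3 was the sixth gene in control input (8.25), where it overlapped Sesn2 (8.23), and the fourth in DTR input (17.4), where it overlapped Ddit4 (16.7). Sesn2 was the seventh gene in control input and the fourth in control IP (26.5), next to Ppp1r15a (24.3), with which it overlapped. Atf5, Trib3 and Chac1 were the lowest in all 4 groups. Chac1 was the last in each, between 1.07 and 3.45, and its range overlapped that of Trib3 in each group except DTR input. Within groups, the coefficient of variation of the CPM ran from 2.51% (Asns in control IP) to 36.0% (Trib3 in control IP).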

How the data were processed

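Input and IP RNA of P4 cochleae had been measured in 16 libraries (4 groups of 4) made with SMART-Seq v4. The authors aligned reads to GRCm38, used HTSeq to count them per gene, and deposited the resulting CPM. The study's methods name HISAT2 (version 2.0.4) as aligner, and the submitters' processing notes name TopHat. The annotation release and the strand setting are not given in the sources used here. Of 50316 genes listed, 47729 had values. The deposited CPM were whole multiples of 1 read for 100% of values (tolerance 0.05 reads), so whole reads were recovered for edgeR and DESeq2, and depth ran from 28089836 to 41966310 counted reads. Intervals and floors from reads cover counting error only.

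From the deposited CPM, values were quantile-normalized and tested on log2(CPM + 0.5) with limma (version 3.58.1, R 4.3.3, trend, two-sided, 1 fit over all 16 libraries, 16994 genes reaching 0.5 CPM throughout at least 1 group), with Benjamini-Hochberg adjustment over all tested genes and a threshold of 0.05. The study's own fold and separation rule was the second call, with values raised to a floor of 1.08 CPM for the separation. An LFC on this scale understates the change of low genes. A test in edgeR (version 4.0.16) on the recovered reads called 1335 genes higher and 1347 lower in DTR IP than in control IP, where limma called 1434 and 1240. DESeq2 (version 1.42.0), other scalings, pseudocounts, filters, replicate blocks and leaving out each library were the other alternatives. Scripts were tested on simulated data.

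The named genes are the 10 members, the 2 genes of each pathway list with the largest absolute LFC among those past the threshold in DTR IP against control IP, every measured paralog, and the 2 nearest genes in pattern for each member that passed after damage. The members and lists were chosen with earlier results of these data known. Positions came from GENCODE M21 and promoters from RefSeq (GRCm38.p6). IP and input of 1 number share a pool, and the deviations of same-numbered libraries from their group means correlated in every pair, with a lowest r of 0.288 between input and IP of control, 0.312 of DTR, 0.306 between control IP and DTR IP and 0.291 between the inputs, so replicate number and pool were used as blocks. No 2 libraries of a group agreed within sampling noise. Replicates were separate pools of animals.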

Additional observations from a re-analysis of the deposited data

Results flagged for a closer look

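Among the 40 groups of 4 libraries formed by the 10 genes in the 4 groups, 2 had a library far from the others by the size of its gap to the nearest library, and chance alone sets apart about 1 in 20 such groups. Ppp1r15a was highest in control input replicate 2, at 90.5 CPM, with a gap of 0.878 of the range. Hspa5 was lowest in DTR IP replicate 3, at 749 CPM, also with a gap of 0.878 of the range, and Pdia4 had its smallest change after damage in IP without the same library (LFC -0.29). No cause was tested.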

How the results depend on the processing

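Of 1340 values of a member in a comparison under an alternative setting, 1264 kept their direction and their side of the threshold, 41 lost the threshold, 14 gained it and 21 changed sign. Under the study's fold and separation rule 1 member rather than 3 passed in DTR IP against control IP. With the trend on gene length and GC content removed, chosen after seeing the data, 4 members rather than 7 passed in control IP against control input. Leaving out 1 library gave 2 to 4 members in DTR IP against control IP, 3 in each input fit, 0 for the difference between IP and input, 5 to 8 in control IP against control input and 5 to 8 in DTR IP against DTR input.

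The difference between IP and input changes was 0.05 for Hspa5 and became -0.15 without quantile normalization, -0.18 with median centring, -0.17 in edgeR and -0.14 in DESeq2. Leaving out 1 library moved it from -0.0474 to 0.25 for Hspa5, from -0.16 to 0.0074 for Atf5, from -0.26 to 0.0427 for Chac1 and from -0.19 to 0.0589 for Ddit4. The LFC of DTR IP against control IP then ran from -0.28 to 0.0593 for Trib3, from -0.18 to 0.0469 for Ppp1r15b and from -0.0722 to 0.163 for Sesn3, and that of DTR input against control input from -0.12 to 0.08 for Sesn2. Sesn3 was at -0.0731 with gene length and GC removed. Over all genes, the difference between IP and input called 0 higher and 2 lower in limma, 15 and 25 with the pool as a block, 24 and 25 in DESeq2, 0 and 0 in edgeR and 0 and 4 with gene length and GC removed. The replicate block changed no call of a member other than those of Asns and Hspa5 given above. The cause of these changes was not tested.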

Other observations

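Some other genes of the pathway lists passed in input after damage and were chosen here after their values were seen. Eif2ak3, the ER-resident eIF2 kinase PERK, averaged 46.6 CPM in control input and 62.6 CPM in DTR input (LFC 0.39, limma adjusted p = 0.0448). Cebpg, which encodes a dimer partner of ATF4, averaged 33.2 and 63.1 CPM (LFC 0.90, adjusted p = 0.00236). Bbc3 averaged 8.79 and 36.9 CPM (LFC 2.01, adjusted p = 5.03e-10), while Ndrg1 averaged 91.8 and 57.8 CPM (LFC -0.65, adjusted p = 0.000755). Among the genes of ER-associated degradation, the ubiquitin ligase gene Syvn1 was higher (LFC 0.47, adjusted p = 0.0265) and its partner gene Sel1l lower (LFC -0.40, adjusted p = 0.0286).

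Between IP and input, the listed gene with the largest LFC was Crebrf, a regulator of the CREB3 family, which averaged 32.7 CPM in control input and 172 CPM in control IP (LFC 2.32, limma adjusted p = 4.29e-08). Impact, which encodes an inhibitor of the eIF2 kinase GCN2, averaged 32.9 and 74.5 CPM (LFC 1.14, adjusted p = 2.52e-05).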
